A study of Mus musculus with 24 samples.

Results

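Airway epithelial cells of high surface BCAM were compared with cells of low surface BCAM by bulk RNA sequencing of small sorted pools. BCAM, the basal cell adhesion molecule, is a membrane glycoprotein that binds laminin and gives the sort its name. All libraries whose subset label is BCAM HI or BCAM LO were taken, which were 16 of the 24 libraries of the series: 8 of BCAM high cells and 8 of BCAM low cells. The remaining 8, labelled differentiated, enter none of the comparisons and only the fit of all 24 libraries named as an alternative. Every library came from 1000 cells sorted from the trachea of untreated (labelled naïve) wild-type female mice, and their strain was C57BL/6 by the series title. No age is stated, nor the other antibodies and gates of the sort. In each group replicates 1 to 5 carry the label batch 1 and replicates 6 to 8 batch 2, and the labels do not say what the batch number stands for. The labels do not say whether libraries came from separate animals, so the p-values measure the spread between these libraries, which may be partly technical.

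Basal cells sit on the basement membrane of the tracheal epithelium, hold to it through laminin-binding integrins, express keratins such as Krt5 together with the transcription factor Trp63, and act as progenitors. When they differentiate they lose contact with the matrix, switch keratins and form secretory cells, which release antimicrobial proteins and carry detoxifying enzymes, or ciliated cells, with Notch signals from neighbouring cells as one of the known switches. Intermediate states between basal and luminal cells are known in this tissue, among them flat stratified patches that express keratins of the squamous type.

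Estimated counts totalled 2318444 to 3686896 per library in BCAM high and 1824619 to 4440072 in BCAM low, and 11764 genes had enough counts to be tested. Over log2 CPM, the leading principal component carried 22.7% of the variance and followed the batch number. Within each batch it also separated the groups. In batch 1 BCAM high lay at -39.5 to -27.3 and BCAM low at -17.5 to -3.2, and in batch 2 at 7.22 to 20.3 and 45.95 to 60.9. The second, with 15.6%, placed BCAM high libraries between 7.30 and 39.0 and BCAM low libraries between -0.58 and -60.0, the last being replicate 3. On it, batch 2 lay above batch 1 in each group. The labelled cell type could be checked on its markers: all 15 basal markers were tested, Krt5 among them at 1401 CPM or more in every BCAM high library and 786 CPM or more in every BCAM low library. Summed CPM of 15 secretory markers ran from 42152 to 56647 in BCAM high and from 50746 to 113505 in BCAM low, and those of 15 ciliated markers from 103 to 395 and from 414 to 1029.97. Summed CPM of 6 erythrocyte markers reached 1718 in BCAM low replicate 2, of 8 thyroid markers 1436.5 in BCAM high replicate 7, and of 4 parathyroid markers 515 in BCAM low replicate 7. The predicted gene Gm10800 took 1.52% to 7.41% of counts in BCAM high and 2.19% to 13.4% in BCAM low. In such pools fewer cells of a type and less RNA of a gene per cell cannot be told apart.

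Of the 11764 genes, 1297 (11%) differed between BCAM high and BCAM low with a p adjusted by Benjamini-Hochberg (BH) under 0.05 in edgeR's quasi-likelihood test with batch as a covariate ("edgeR QL" below, a gene past this threshold being "called"). Of these, 534 (4.54%) were higher and 763 (6.49%) lower in BCAM high, beside a median change over all genes of -4e-04 on the log2 scale. Falls were deeper than rises: the median change was 0.51 among genes called higher and -0.79 among genes called lower, and 272 genes were lower by at least 1 on the log2 scale against 55 higher by as much. The groups did not overlap, every library of one lying beyond every library of the other, for 52 genes higher (0.442%) and 118 lower (1%). The same sign was seen within batch 1 and within batch 2 for 1289 of the 1297. The libraries of both batches entered the fit that called these genes, so this agreement is not a separate test. Of the 1297, 613 were called in the same direction in batch 1 alone and 517 in batch 2 alone. In each of the 16 fits that left out 1 library, 837 kept their call. Counts of calls differed with the fit: 857 in a fit of all 24 libraries, 671 without the batch term, 787 in batch 1 alone and 722 in batch 2 alone. The split depended on the scale: on deposited TPM 1210 genes were called higher and 247 lower with limma, with the median over all genes moved to 0.27. A set of 12 repeat-like predicted genes, Gm10800 among them, held 5.88% to 27.6% of TPM in BCAM high and 8.18% to 42.9% in BCAM low. With those 12 left out of the TPM the numbers were 550 higher and 381 lower, with a median of 0.08.

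**Figure D1:**
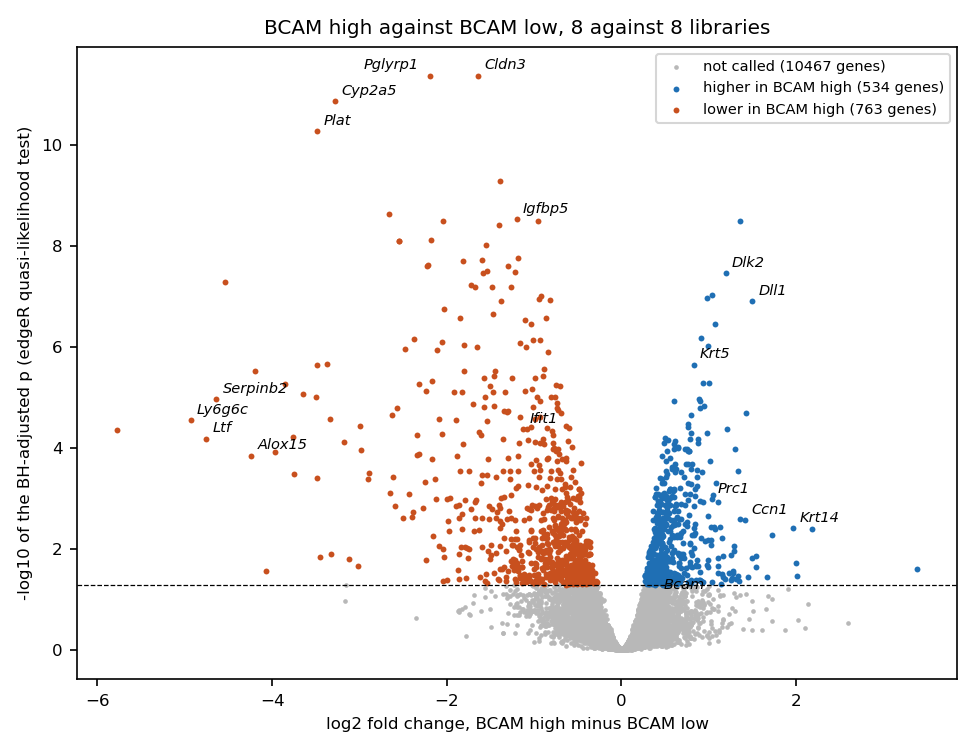
Each point is 1 of the 11764 genes tested, with the log2 fold change of BCAM high minus BCAM low on the horizontal axis and -log10 of the BH-adjusted p of edgeR QL on the vertical axis. Blue marks the 534 genes higher in BCAM high, orange the 763 lower, and the dashed line is the threshold of 0.05; the lower genes spread out to log2 changes near that of Ly6g6c at -4.93, and among the higher ones Krt14 lies at 1.96.

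Values over the 8 libraries of a group are given below as lowest, median and highest CPM, scaled to TMM library totals, and a value after a gene's name with no unit is its log2 change, BCAM high minus BCAM low. Counts of called list members stand beside 4.54% higher and 6.49% lower over all 11764 genes. A count near these shares does not set a list apart. Bcam RNA, the message of the protein used for the sort, was at 359.8, 559.8 and 817 CPM in BCAM high against 248, 461 and 512 CPM in BCAM low. The ranges overlapped, and the difference did not pass the test (log2 change 0.41, SE 0.15, edgeR QL adjusted p = 0.0825), although 7 of the 8 same-numbered comparisons of libraries had the higher value in BCAM high. With the replicate number as a block in the fit it passed (edgeR QL adjusted p = 0.00422). It also passed in the DESeq2 Wald test, with limma on TPM, with no filter on low counts and in batch 2 alone. Of the 16 fits that left out 1 library, it passed in 3. It did not pass in the other alternative fits, limma-voom, all 24 libraries and batch 1 alone among them. The change was 0.30 in batch 1 and 0.58 in batch 2.

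Basal cell markers were higher in BCAM high: of 15 tested, 13 were called higher and none lower, and the median change was 0.69. Krt14, a keratin of basal and myoepithelial cells, stood at 62.1, 154 and 315 CPM in BCAM high against 12.0, 40.7 and 50.5 CPM in BCAM low, with no overlap between the groups (log2 change 1.96, SE 0.38, edgeR QL adjusted p = 0.00382). Krt5 was at 1401, 1866 and 2359.9 CPM in BCAM high against 786, 1088 and 1258 CPM in BCAM low, again without overlap (log2 change 0.83, SE 0.11, edgeR QL adjusted p = 2.21e-06). The change of Krt5 was 0.59 in batch 1 and 1.23 in batch 2. Trp63, the master transcription factor of basal cells, was higher by 0.78 (SE 0.14), and Snai2, a zinc-finger repressor of the same lineage, by 0.86 (SE 0.16). Also called higher were Krt17 at 0.79, the adhesion molecule Icam1 at 0.73, the neurotrophin receptor Ngfr at 0.69, the mucin-type glycoprotein Pdpn at 0.52, Dapl1 at 0.50, Dlk2, Itgb4, Col17a1 and the glycerol channel Aqp3 at 0.41. The exceptions were Krt15 at -0.21 (edgeR QL adjusted p = 0.101) and the laminin-binding integrin Itga6 at 0.05 (edgeR QL adjusted p = 0.876). Col17a1, the collagen of hemidesmosomes, was higher by 0.48 (SE 0.13) and lost its call without BCAM low replicate 6 and with the replicate block (edgeR QL adjusted p = 0.0855). Several of these genes are markers by which the cell type is defined, and the study's sort used a basal protein.

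Genes of the basement membrane and of hemidesmosomes, the anchors of basal cells, rose in part: 8 of 24 tested were called higher and none lower, with a median change of 0.33. Lamb3, a chain of laminin-332, was at 314, 432 and 478 CPM in BCAM high against 146, 261 and 308 CPM in BCAM low, without overlap (log2 change 0.76, SE 0.13, edgeR QL adjusted p = 0.000114). Agrn, a heparan sulfate proteoglycan of basement membranes, was higher by 0.54 (SE 0.12) and Itgb4, the integrin chain of hemidesmosomes, by 0.51 (SE 0.10), both with every BCAM high library above every BCAM low library. The anchoring fibril collagen Col7a1 was higher by 0.47 (SE 0.12), and the linkers Dst and Plec by 0.47 (SE 0.14) and 0.33 (SE 0.10). Dst lost its call without BCAM high replicate 3 or 6 or BCAM low replicate 3, 6, 7 or 8, Plec without BCAM high replicate 7 or 8 or BCAM low replicate 6 or 7, and Col17a1 without BCAM low replicate 6 and with the replicate block (edgeR QL adjusted p = 0.0855). The tetraspanin Cd151, at 0.41, lost its call in 10 of the 16 fits, all but those without BCAM high replicate 4, 5 or 6 or BCAM low replicate 1, 2 or 8. The count was 4 without BCAM low replicate 6, 5 without BCAM low replicate 7, and 1 in batch 1 alone against 10 in batch 2 alone. The change of Agrn was 0.34 in batch 1 and 0.90 in batch 2.

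Of 33 tested matrix and matricellular genes, cell-surface proteoglycans among them, 13 were called higher and none lower (median 0.40). The number higher was 8 in batch 1 alone, 6 in batch 2 alone, 4 with all 24 libraries and 4 without the batch term. Matn4, a matrilin that links matrix filaments, was at 9.92, 19.0 and 37.1 CPM in BCAM high against 5.00, 7.99 and 10.9 CPM in BCAM low (log2 change 1.33, SE 0.24, edgeR QL adjusted p = 0.000279). Timp3, an inhibitor of metalloproteinases bound to the matrix, was at 71.2, 234 and 326 CPM in BCAM high against 31.2, 123 and 153 CPM in BCAM low (log2 change 0.99, SE 0.12, edgeR QL adjusted p = 9.57e-07). All 8 same-numbered comparisons of both genes had the higher value in BCAM high, although the ranges overlapped, and levels of Timp3 were lower in batch 2 in both groups. Col18a1, a basement membrane collagen, was higher by 1.15 (SE 0.28). The remaining ones were Dcn at 0.84, Gpc3 at 0.79, Fbln1 at 0.76, Sparc at 0.72, Fn1 at 0.66, Efemp1 at 0.51, Gpc4 at 0.50, Sdc1 at 0.40 and Sdc4 at 0.32. Matn2, at 0.52, lost its call in 13 of the 16 fits, all but those without BCAM high replicate 7 or BCAM low replicate 4 or 8. Markers of fibroblasts, which also make Dcn and Fbln1, summed to 2111, 2761 and 3255 CPM in BCAM high and to 1548, 2235 and 2666 CPM in BCAM low, most of it Gsn. The fibrillar collagen genes Col1a2 and Col3a1, which define fibroblasts, had means of 3.36 and 1.98 CPM in BCAM high against 11.4 and 17.5 CPM in BCAM low, the opposite order, and neither was called.

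Caveolae, the membrane pits built by caveolins and cavins, had 4 of 7 tested genes called higher and none lower (median 0.44). Ehd2, an ATPase at the neck of caveolae, was at 53.3, 68.2 and 77.9 CPM in BCAM high against 17.8, 41.2 and 60.2 CPM in BCAM low (log2 change 0.79, SE 0.15, edgeR QL adjusted p = 0.000505). Cav1 was higher by 0.62 (SE 0.13), Cavin2 by 0.56 (SE 0.11) and Cav2 by 0.44 (SE 0.10), and Ehd2, Cav1 and Cavin2 were higher in BCAM high in all 8 same-numbered comparisons. Of 23 genes of actin fibres and focal adhesions, 5 were called higher and 2 lower. The number higher was 2 or 3 in 11 of the 16 fits that left out 1 library, all but those without BCAM high replicate 2, 4 or 6 or BCAM low replicate 2 or 4. Csrp1, an actin-bundling LIM protein, was at 95.0, 146 and 162 CPM in BCAM high against 38.1, 82.3 and 95.9 CPM in BCAM low (log2 change 0.88, SE 0.13, edgeR QL adjusted p = 1.08e-05). Zyx, a focal adhesion LIM protein, was lower, at -0.65 (SE 0.12), with no overlap. Acta2, the smooth muscle actin also found in myoepithelial cells, had the largest rise named here, 7.33, 19.4 and 37.1 CPM in BCAM high against 0, 4.08 and 10.8 CPM in BCAM low (log2 change 2.01, SE 0.56, edgeR QL adjusted p = 0.0333). Its ranges overlapped, and its change was 1.30 in batch 1 and 4.07 in batch 2. Its call was lost without BCAM high replicate 1, 2 or 8 or BCAM low replicate 1, 5 or 6 (highest edgeR QL adjusted p = 0.0771) and with the replicate block (edgeR QL adjusted p = 0.107).

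**Figure D2:**
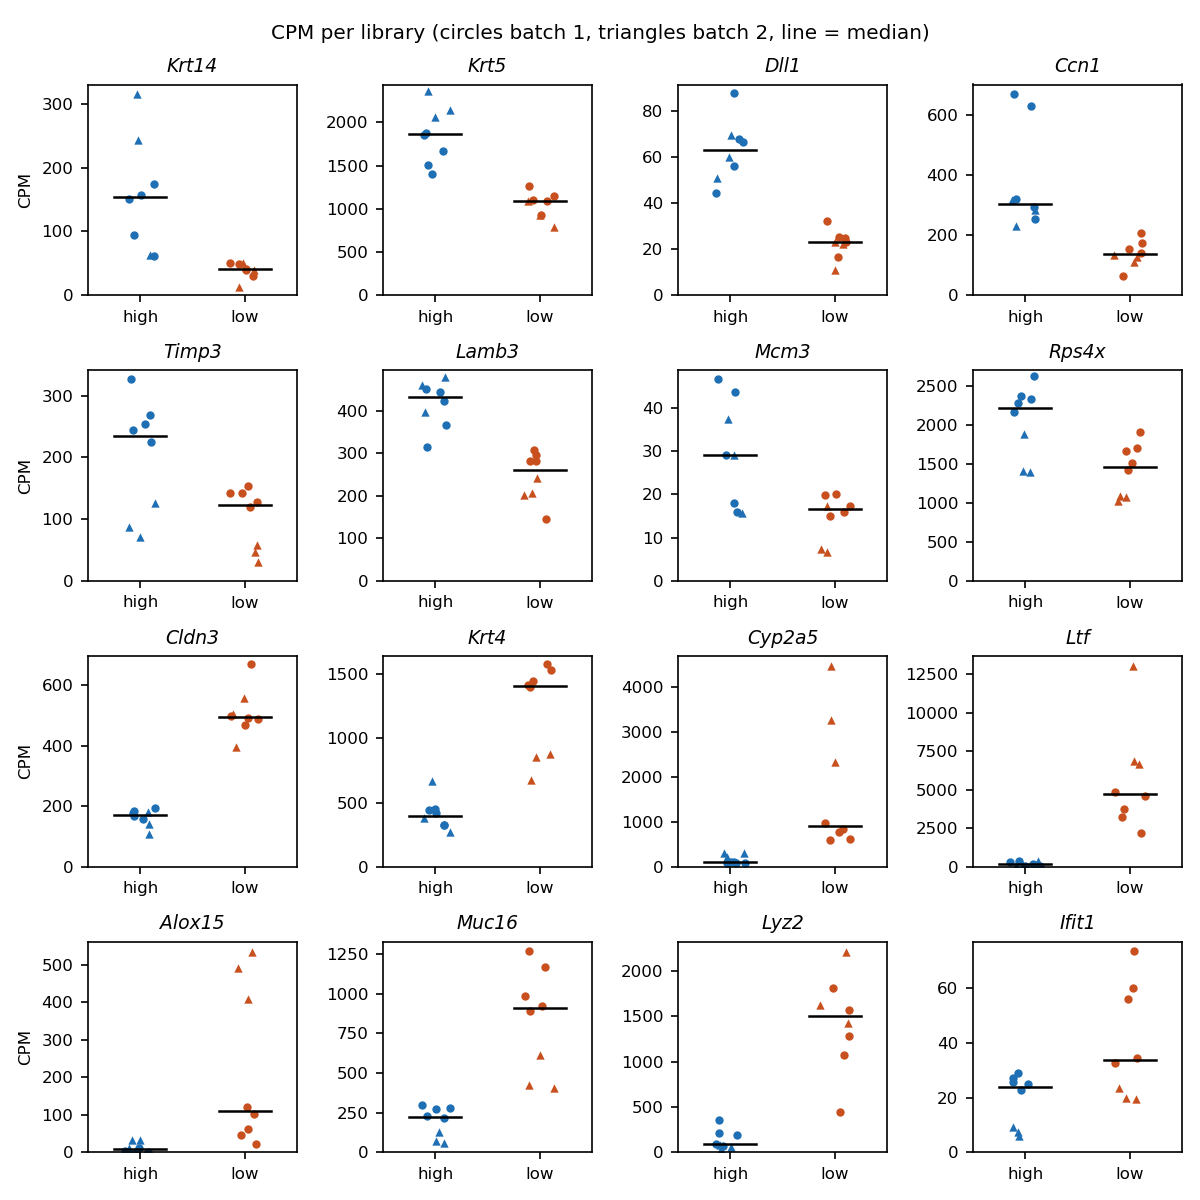
CPM of 16 genes in each of the 16 libraries, BCAM high in blue and BCAM low in orange, with circles for batch 1, triangles for batch 2 and a line at the group's median. Krt14, Krt5, Dll1 and Lamb3 lie higher in every BCAM high library than in any BCAM low library, Cldn3, Krt4, Cyp2a5, Ltf, Muc16 and Lyz2 lie lower in every one, and Timp3, Mcm3, Rps4x, Alox15 and Ifit1 overlap.

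Of 12 tested Notch ligands, receptors and targets, 4 were called higher, 2 lower and 6 not. On TPM 5 were called higher and none lower. The ligand Dll1 was at 44.3, 63.1 and 87.7 CPM in BCAM high against 10.9, 23.01 and 32.2 CPM in BCAM low, so that the lowest BCAM high library stood above the highest BCAM low library (log2 change 1.498, SE 0.17, edgeR QL adjusted p = 1.23e-07). Its change was 1.40 in batch 1 and 1.68 in batch 2. Dlk2, a non-canonical ligand that can hold Notch signalling down, was at 89.0, 136 and 176 CPM in BCAM high against 42.0, 55.5 and 96.1 CPM in BCAM low and overlapped slightly (log2 change 1.19, SE 0.12, edgeR QL adjusted p = 3.42e-08). Jag2, a ligand that presents to neighbouring cells, was higher by 0.42 (SE 0.10) and the coactivator Maml2 by 0.47 (SE 0.14). The receptor Notch3 was at 0.875, 3.97 and 5.63 CPM in BCAM high against 6.20, 10.2 and 15.4 CPM in BCAM low, with no overlap (log2 change -1.67, SE 0.34, edgeR QL adjusted p = 0.00106). Notch2 was lower as well, at -0.34 (SE 0.10), and lost its call without BCAM high replicate 3 or 8 or BCAM low replicate 6.

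Among 15 tested EGF receptors, ligands and feedback genes, 5 were called higher and 3 lower. Egfr, the receptor common to most of these ligands, was higher by 0.53 (SE 0.12), and the feedback inhibitors of its pathway Spry1, Dusp6 and Spry2 by 0.80 (SE 0.14), 0.65 (SE 0.11) and 0.64 (SE 0.11). Spry1 was at 42.1, 61.3 and 105 CPM in BCAM high against 19.3, 39.5 and 51.9 CPM in BCAM low. The coreceptor Erbb2 was lower at -0.49 (SE 0.10) with no overlap. The ligand Areg was at 1.64, 5.92 and 37.8 CPM in BCAM high against 11.6, 30.9 and 47.0 CPM in BCAM low (log2 change -1.77, SE 0.51, edgeR QL adjusted p = 0.0378). Its call was lost with the replicate block (edgeR QL adjusted p = 0.0702) and in 10 of the 16 fits, all but those without BCAM high replicate 6 or 8 or BCAM low replicate 1, 2, 7 or 8. The ligand Nrg1, higher by 0.90 (SE 0.28), lost its call in 12 of the 16 fits, all but those without BCAM high replicate 1 or 5 or BCAM low replicate 2 or 4. The receptor Erbb3, lower at -0.39, lost its call in 10 of the 16 fits, all but those without BCAM high replicate 3, 4, 6 or 7 or BCAM low replicate 2 or 8. The number called lower was 1 without BCAM high replicate 1, 2 or 5 or BCAM low replicate 3, 4 or 5.

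Of 22 Wnt ligands, receptors and inhibitors, 3 were called higher and 1 lower (18.2% called, beside 11% of all genes). The number lower was 0 without BCAM high replicate 1, 2, 4, 6 or 7 or BCAM low replicate 3, 4, 6 or 8, and 2 without BCAM high replicate 8. The inhibitor family member Dkk3, at 0.52, lost its call in 9 of the 16 fits, all but those without BCAM high replicate 2, 4 or 7 or BCAM low replicate 1, 3, 5 or 8. The number higher was 1 in either batch alone. The ligand Wnt9a was at 9.92, 15.7 and 58.2 CPM in BCAM high against 3.88, 8.41 and 25.05 CPM in BCAM low (log2 change 1.08, SE 0.21, edgeR QL adjusted p = 0.000478). The ligand Wnt10a was at 15.4, 40.4 and 69.0 CPM in BCAM high against 7.71, 26.6 and 37.8 CPM in BCAM low (log2 change 0.81, SE 0.21, edgeR QL adjusted p = 0.0128). Of 27 BMP and TGF-beta genes, 4 were called higher and 2 lower. The number lower was 0 without BCAM high replicate 1, 2 or 3 or BCAM low replicate 3, and 1 without BCAM high replicate 5, 6 or 8 or BCAM low replicate 1, 2, 4, 6 or 7. In either batch alone, on TPM and with all 24 libraries it was 0, and the number higher was 1 in batch 1 alone, 2 in batch 2 alone and 1 with all 24 libraries. Tgfbi, a secreted matrix protein induced by TGF-beta, was at 32.3, 49.99 and 72.5 CPM in BCAM high against 7.23, 26.5 and 34.7 CPM in BCAM low (log2 change 1.05, SE 0.20, edgeR QL adjusted p = 0.000855). Bmp3, a ligand that opposes other BMPs, was higher by 0.87 (SE 0.23), and Fstl1, a secreted binder of the family, by 0.49 (SE 0.14). Of 21 targets of the YAP and TEAD pair, which answers to stretch and cell density, 5 were called higher and 1 lower. Ccn1, the first-named of these targets, was at 231, 305 and 671 CPM in BCAM high against 64.9, 136 and 208 CPM in BCAM low with no overlap (log2 change 1.41, SE 0.26, edgeR QL adjusted p = 0.00266). The coagulation trigger F3 was also higher in every BCAM high library than in any BCAM low library, by 0.44 (SE 0.10), and Ptgs2, which makes prostaglandins, was lower at -1.04 (SE 0.27). The count of 5 was 3 without BCAM high replicate 3, BCAM high replicate 6, BCAM low replicate 5 or BCAM low replicate 7, and 1 in batch 1 alone.

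Immediate early and stress genes, which cells switch on within minutes of a stimulus or of dissociation, had 8 of 32 tested called higher and none lower, with a median of 0.14. Myc was at 42.1, 90.7 and 157 CPM in BCAM high against 28.4, 59.2 and 89.4 CPM in BCAM low (log2 change 0.75, SE 0.16, edgeR QL adjusted p = 0.0029). Fos was higher by 0.44 (SE 0.10), Jun by 0.42 (SE 0.10), Btg2 by 0.50 (SE 0.10), Dnajb1 by 0.47 (SE 0.11), Egr2 by 0.79 (SE 0.21), Ier3 by 0.50 (SE 0.14) and Fosl1 by 0.76 (SE 0.25). Egr2 lost its call without BCAM low replicate 3 (edgeR QL adjusted p = 0.0565) and Ier3 without BCAM high replicate 3 or 8 or BCAM low replicate 6. Fosl1 lost its call with the replicate block (edgeR QL adjusted p = 0.0596) and in 12 of the 16 fits, all but those without BCAM high replicate 2 or 5 or BCAM low replicate 1 or 4. The count was 2 in batch 1 alone and 8 in batch 2 alone. The part of the sort itself in these values was not tested.

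Of 29 tested genes that act in mitosis, 9 were called higher and none lower, and the median change was 0.77. DNA replication genes had 7 of 39 called higher and none lower (median 0.32). Levels were low throughout. Ccnb1, the cyclin of entry into mitosis, was at 0, 9.17 and 25.3 CPM in BCAM high against 0, 2.37 and 6.84 CPM in BCAM low (log2 change 2.00, SE 0.54, edgeR QL adjusted p = 0.0185), and both groups held a library with none. Cenpf, a kinetochore protein, was at 5.54, 8.66 and 18.0 CPM in BCAM high against 2.41, 3.90 and 6.43 CPM in BCAM low (log2 change 1.29, SE 0.33, edgeR QL adjusted p = 0.0086). Prc1, which bundles the central spindle, was at 17.0, 26.9 and 37.6 CPM in BCAM high against 8.90, 12.0 and 20.8 CPM in BCAM low (log2 change 1.03, SE 0.21, edgeR QL adjusted p = 0.00101). Birc5, of the chromosomal passenger complex, was higher by 1.73 (SE 0.42). Tpx2, a spindle assembly factor, was higher by 1.67 (SE 0.52) and lost its call without BCAM high replicate 1, 5 or 6 or BCAM low replicate 1, 3, 4, 6 or 8. The cyclin Ccnb2, at 1.28, lost its call without BCAM high replicate 1 or 3 or BCAM low replicate 1, 3 or 4, and the kinetochore gene Spc24, at 1.10, without BCAM high replicate 1. Cdca8 and Smc2, at 1.31 and 1.15, each lost theirs in 8 of the 16 fits, Cdca8 without BCAM high replicate 1, 3, 5 or 6 or BCAM low replicate 1, 3, 4 or 7 and Smc2 without BCAM high replicate 1, 5 or 6 or BCAM low replicate 3, 4, 6, 7 or 8. Cdca8 also lost its call with the replicate block (edgeR QL adjusted p = 0.0699). Mitosis calls numbered 4 without BCAM high replicate 1, 5 without BCAM low replicate 3 or without BCAM low replicate 4, and 1 in batch 2 alone. Replication calls numbered 4 in batch 1 alone, 1 in batch 2 alone and 3 on TPM without the repeat-like genes. On the replication side, Mcm3, a subunit of the replicative helicase, was at 15.7, 29.1 and 46.7 CPM in BCAM high against 6.74, 16.7 and 20.2 CPM in BCAM low (log2 change 0.99, SE 0.24, edgeR QL adjusted p = 0.00661). Its partners Mcm4, Mcm5 and Mcm7 were higher by 0.83 (SE 0.20), 0.91 (SE 0.22) and 0.86 (SE 0.16). Rrm2, the small subunit of ribonucleotide reductase, was at 5.51, 12.9 and 24.7 CPM in BCAM high against 2.33, 4.51 and 10.4 CPM in BCAM low (log2 change 1.25, SE 0.34, edgeR QL adjusted p = 0.0128), with every same-numbered comparison higher in BCAM high. Rrm1, its large subunit, was higher by 0.50 (SE 0.14) and lost the call without BCAM high replicate 1. Uhrf1, which maintains DNA methylation at the fork, was at 3.27, 10.1 and 27.2 CPM in BCAM high against 0.790, 4.06 and 11.1 CPM in BCAM low (log2 change 1.45, SE 0.44, edgeR QL adjusted p = 0.0348) and lost its call without BCAM high replicate 1, 5 or 8 or BCAM low replicate 3, 4, 5, 6 or 8.

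As examples of genes called higher in these lists, the 200 bases before their starts are shown for Cenpf and Prc1 (mitosis) and for Mcm3, Mcm5 and Rrm2 (replication), 5′ to 3′ on the gene's strand, from RefSeq on GRCm38.p6. Capitals mark the CCAAT box (CCAAT on either strand) and, in Mcm5, an E2F-type site (TTTCCCGC or TTTGGCGC on either strand).
Cenpf: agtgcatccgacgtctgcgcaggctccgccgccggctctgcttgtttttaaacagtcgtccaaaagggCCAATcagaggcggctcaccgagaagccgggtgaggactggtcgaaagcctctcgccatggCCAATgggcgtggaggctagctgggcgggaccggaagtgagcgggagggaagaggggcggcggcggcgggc
Prc1: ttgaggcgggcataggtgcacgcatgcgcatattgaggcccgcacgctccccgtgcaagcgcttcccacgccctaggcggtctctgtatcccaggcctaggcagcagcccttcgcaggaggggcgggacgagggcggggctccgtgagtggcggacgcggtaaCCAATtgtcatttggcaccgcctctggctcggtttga
Mcm3: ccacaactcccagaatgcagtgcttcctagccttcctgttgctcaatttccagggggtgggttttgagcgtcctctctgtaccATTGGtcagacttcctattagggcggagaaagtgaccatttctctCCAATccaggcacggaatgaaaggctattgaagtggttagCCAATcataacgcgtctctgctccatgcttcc
Mcm5: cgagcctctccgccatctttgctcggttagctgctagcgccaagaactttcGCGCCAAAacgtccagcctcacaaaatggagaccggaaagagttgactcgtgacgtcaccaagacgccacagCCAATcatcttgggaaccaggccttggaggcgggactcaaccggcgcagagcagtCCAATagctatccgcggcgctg
Rrm2: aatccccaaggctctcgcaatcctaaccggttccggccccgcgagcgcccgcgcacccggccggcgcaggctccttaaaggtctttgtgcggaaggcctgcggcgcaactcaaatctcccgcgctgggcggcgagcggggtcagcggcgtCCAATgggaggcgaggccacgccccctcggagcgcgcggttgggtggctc
These windows lie at chr1:189688087-189688286 (minus strand), chr7:80294251-80294450 (plus strand), chr1:20820313-20820512 (minus strand), chr8:75109309-75109508 (plus strand) and chr12:24708054-24708253 (plus strand). In Cenpf the boxes begin 132 and 71 bases before the start, in Prc1 37, in Mcm3 117, 72 and 32, in Mcm5 77 and 22, and in Rrm2 50, while the E2F-type match of Mcm5 begins 149 bases before it. CCAAT was present in 32.9% of the 9000 windows of tested genes that had one, in 19 of 23 mitosis genes (82.6%) and in 17 of 32 replication genes (53.1%). Among the genes called in those lists it was in 6 of 7 and 6 of 6. The E2F-type letters were in 2.27% of all windows, in 6 of 32 replication genes (18.8%) and in 2 of the 6 called ones. The cell cycle homology motif TTTGAA, searched on both strands, was in 7.74% of all windows, in 9 of 23 mitosis genes (39.1%) and in 2 of the 7 called ones. None of the 3 motifs holds another whole, although some share runs of letters. Over all genes called higher the share with CCAAT was 32.0% and over all genes called lower 31.1%, next to the 32.9% of all tested genes. A match is a description of letters, not a binding site.

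Of 81 tested genes of cytosolic ribosomal proteins, 50 were called higher and 1 lower, with a median change of 0.33 and a range of -0.52 to 0.53. Rps4x, of the small subunit, was at 1395, 2219.8 and 2619 CPM in BCAM high against 1024, 1464 and 1912 CPM in BCAM low (log2 change 0.53, SE 0.09, edgeR QL adjusted p = 6.78e-05). Rplp0, of the ribosomal stalk, was higher by 0.50 (SE 0.08), and for Rps4x all 8 same-numbered comparisons were higher in BCAM high. The ranges of Rps4x overlapped, and its batch 2 libraries were lower in either group. Calls ran from 38 to 65 when 1 library was left out, with 15 in batch 1 alone, 29 in batch 2 alone and 12 without the batch term. The gene called lower, Rps2 (-0.52 (SE 0.16)), has many processed copies and lost its call with the replicate block (edgeR QL adjusted p = 0.0875) and in 10 of the 16 fits, all but those without BCAM high replicate 3 or 4 or BCAM low replicate 1, 4, 5 or 8. Of 32 tested pseudogenes named after a ribosomal protein, 15 were called higher and none lower. Rpl3-ps1 was among them, at 198, 447 and 789.6 CPM in BCAM high against 14.8, 197 and 356 CPM in BCAM low (log2 change 1.49, SE 0.36, edgeR QL adjusted p = 0.0151). Rpl3 itself was not called (log2 change 0.21, edgeR QL adjusted p = 0.117). Reads of such copies and of the parent gene cannot be told apart with certainty in estimated counts.

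Of 74 nuclear genes of oxidative phosphorylation 2 were called higher and 1 lower in counts, with a median of 0.03. The share called was 4.05%, beside 11% of all genes. On TPM 12 were called higher and none lower, and without the repeat-like genes 4 and 1. The number higher in counts was 1 without BCAM high replicate 1, 2, 3 or 5 or BCAM low replicate 3 or 4, and none in batch 2 alone. Ndufa4, a subunit bound to cytochrome oxidase, was the one lower, at 129, 175 and 193 CPM in BCAM high against 206, 249 and 320.1 CPM in BCAM low, without overlap (log2 change -0.55, SE 0.10, edgeR QL adjusted p = 0.000268). Uqcrc1, of the cytochrome bc1 complex, was higher by 0.40 (SE 0.10), also without overlap. On TPM none of the 13 tested mitochondrial DNA genes was called, their median being -0.02 beside 0.27 over all genes. Without the repeat-like genes 4 were called lower on TPM. In counts 5 were called lower and none higher (median -0.29). Of these, mt-Co2 was at 1435, 2589.7 and 3472 CPM in BCAM high against 1723, 3989 and 6959 CPM in BCAM low (log2 change -0.62, SE 0.12, edgeR QL adjusted p = 0.000905). The subunit mt-Co1 was at 6143, 7639 and 8589 CPM in BCAM high against 6839.8, 9683 and 13146 CPM in BCAM low (log2 change -0.39, SE 0.10, edgeR QL adjusted p = 0.00802). The complex I genes mt-Nd6, mt-Nd4 and mt-Nd1 were lower too, at -0.40, -0.37 and -0.34. The call of mt-Nd6 was lost without BCAM high replicate 1. That of mt-Nd4 was lost without BCAM high replicate 1, 4, 5 or 6 or BCAM low replicate 3 or 8. That of mt-Nd1 was lost in 9 of the 16 fits, all but those without BCAM high replicate 2, 7 or 8 or BCAM low replicate 1, 4, 5 or 6. Calls numbered 2 without BCAM high replicate 1, 3 without BCAM high replicate 4, 5 or 6 or BCAM low replicate 3 or 8, none in batch 2 alone, and none without the batch term.

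**Figure D3:**
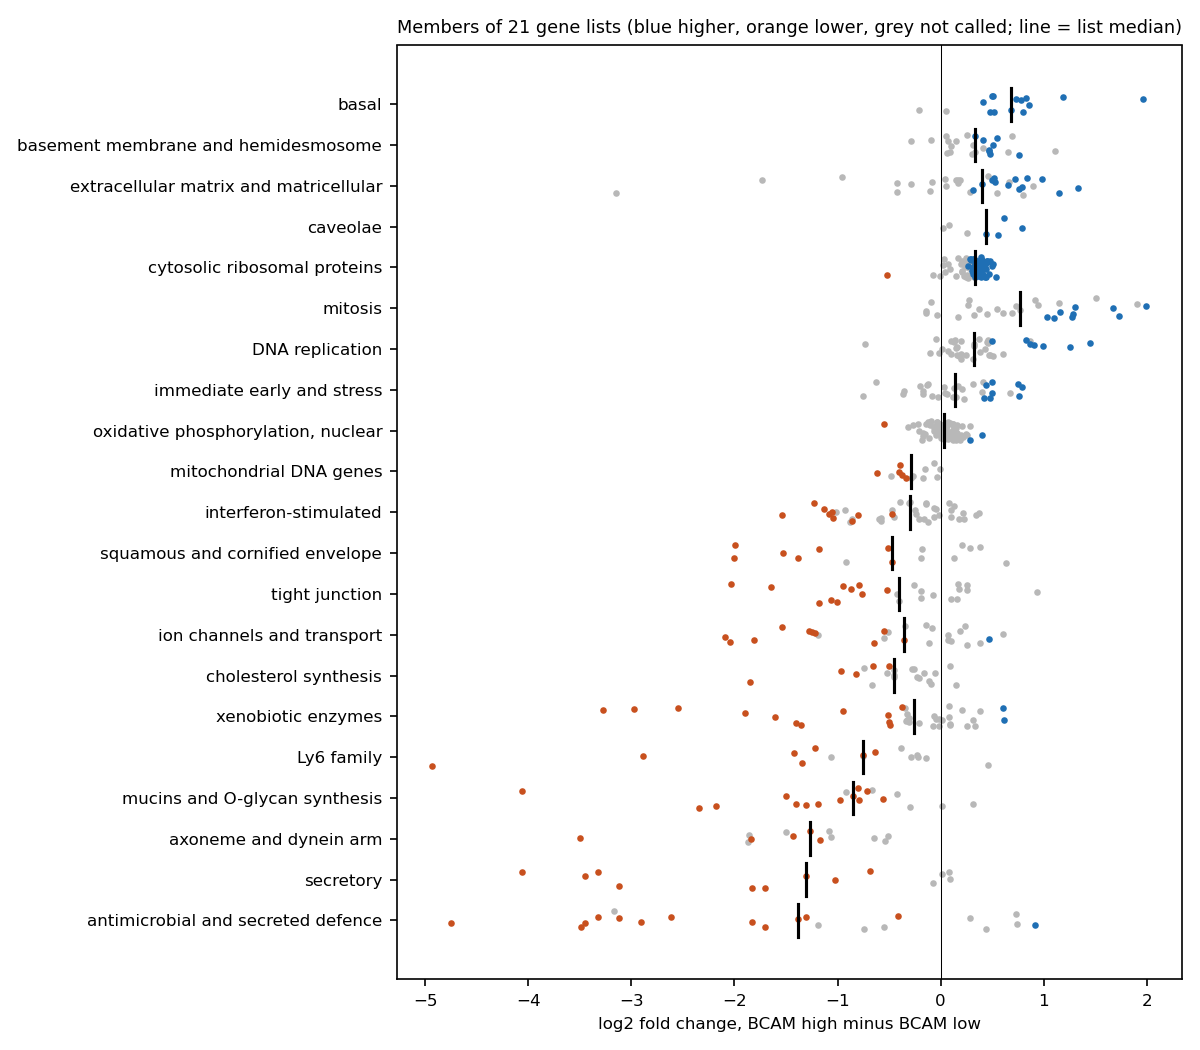
Log2 fold change of BCAM high minus BCAM low for every tested member of 21 gene lists, with blue for called higher, orange for called lower, grey for not called and a line at the list's median. Medians run from 0.77 for mitosis and 0.69 for basal markers down to -1.30 for secretory markers and -1.39 for antimicrobial genes, and the ribosomal proteins form a narrow band around 0.33.

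Among antimicrobial and other secreted defence proteins, 12 of 21 tested were called lower and 1 higher, with a median change of -1.39. Ltf, the iron-binding lactoferrin of airway fluid, was at 48.4, 155 and 360.4 CPM in BCAM high against 2186, 4732 and 13048 CPM in BCAM low, without overlap (log2 change -4.75, SE 0.55, edgeR QL adjusted p = 6.48e-05). Lyz2, a lysozyme of secretory cells and macrophages, was at 39.4, 89.2 and 354 CPM in BCAM high against 441, 1498 and 2209 CPM in BCAM low, without overlap (log2 change -3.49, SE 0.49, edgeR QL adjusted p = 0.00038). Pglyrp1, which binds bacterial peptidoglycan, was at 69.7, 88.7 and 142 CPM in BCAM high against 309, 389 and 597 CPM in BCAM low, and its groups were likewise apart (log2 change -2.19, SE 0.13, edgeR QL adjusted p = 4.27e-12). The secretory cell products Scgb1a1 and Bpifb1 were at 36.1, 141 and 581 CPM in BCAM high against 263, 1721 and 9598 CPM in BCAM low and at 1.96, 9.21 and 49.9 CPM in BCAM high against 5.72, 39.5 and 2099.9 CPM in BCAM low, with groups that overlapped. Both were called (log2 change -3.33, SE 0.77, edgeR QL adjusted p = 0.0124 and log2 change -3.45, SE 0.81, edgeR QL adjusted p = 0.0145) and lost the call with the replicate block (edgeR QL adjusted p = 0.05 and 0.0596). Their change was larger in batch 2, -2.33 in batch 1 and -5.12 in batch 2 for Scgb1a1 and -1.60 in batch 1 and -5.40 in batch 2 for Bpifb1. Also called lower were Pigr, the carrier of secreted antibodies, at -2.61, Wfdc1 at -2.90, Reg3g at -1.83, Bpifa1 at -1.70, Sftpd at -1.39, Scgb3a2 at -1.30, Scgb3a1 at -3.12 and Wfdc2 at -0.41. Scgb3a1 lost its call without BCAM low replicate 3 and with the replicate block (edgeR QL adjusted p = 0.113). The one that rose was the beta-defensin Defb1, at 80.7, 232 and 265 CPM in BCAM high against 34.1, 121 and 144 CPM in BCAM low (log2 change 0.91, SE 0.11, edgeR QL adjusted p = 6.55e-07). Of 13 tested secretory markers 9 were called lower and none higher (median -1.30), 5 with the replicate block, and Cyp2f2, Cbr2, Aldh1a7 and Sult1d1 were not called, with changes of -0.07, 0.01, 0.08 and 0.09.

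Immune cells are another source of Lyz2. Summed CPM of 19 immune markers were 78.7, 146 and 455 in BCAM high against 569.8, 1566 and 2293 in BCAM low, mostly Lyz2 itself. Of the 11 tested, 3 were called lower and none higher: Lyz2, C1qb and Srgn, the last losing its call with the replicate block (edgeR QL adjusted p = 0.0647) and in 10 of the 16 fits, all but those without BCAM high replicate 7 or BCAM low replicate 2, 3, 5, 7 or 8. C1qb, a complement chain of macrophages, was at 1.04, 6.49 and 9.78 CPM in BCAM high against 1.93, 16.4 and 28.7 CPM in BCAM low (log2 change -1.34, SE 0.33, edgeR QL adjusted p = 0.00595). The macrophage receptor Csf1r had means of 10.7 and 18.2 CPM and Cd68 of 10.3 and 15.7 CPM in BCAM high and BCAM low, and neither was called. All 8 tested immune markers that were not called had a negative change. Over the 11 the median was -0.92, with changes from -3.49 to -0.60. The part of immune cells in the Lyz2 difference was not tested.

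Of 19 tested mucins and enzymes that build their glycans, 13 were called lower and none higher (median -0.85). Muc16, a membrane-bound mucin, was at 56.2, 221 and 297 CPM in BCAM high against 406, 907 and 1266 CPM in BCAM low, without overlap (log2 change -2.18, SE 0.15, edgeR QL adjusted p = 7.52e-09). Agr2, the disulfide isomerase needed for mucin folding, was at 8.96, 26.4 and 62.0 CPM in BCAM high against 52.7, 104 and 479 CPM in BCAM low (log2 change -2.34, SE 0.27, edgeR QL adjusted p = 5.4e-05). St3gal4, a sialyltransferase, was at 30.9, 38.6 and 132 CPM in BCAM high against 103, 135 and 257 CPM in BCAM low (log2 change -1.40, SE 0.13, edgeR QL adjusted p = 3.87e-09). Muc20, Gcnt1, Galnt12, Galnt3, Muc1, Ern2, Xbp1, Galnt4 and B3gnt3 were lower at -1.498, -1.31, -1.19, -0.98, -0.85, -0.80, -0.80, -0.71 and -0.55. Of these, Galnt12 lost its call without BCAM low replicate 3, Galnt3 without BCAM high replicate 8 or BCAM low replicate 3 and Galnt4 without BCAM high replicate 1, 2 or 8 or BCAM low replicate 7. The gel-forming mucin Muc5b had the largest fall of the list, -4.07 (SE 1.07), but rested on few libraries, with 1.33, 3.52 and 17.2 CPM in BCAM high against 0.285, 55.1 and 815 CPM in BCAM low. Its call was lost without BCAM high replicate 6, 7 or 8 or BCAM low replicate 3 (highest edgeR QL adjusted p = 0.0712) and with the replicate block (edgeR QL adjusted p = 0.0948).

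Enzymes that process foreign compounds had 12 of 36 tested called lower and 2 higher, with a median for xenobiotic enzymes of -0.26 in counts and of 0.07 on TPM. Over all genes the TPM median was 0.27. Cyp2a5, a cytochrome P450 of nasal and airway epithelium, was at 78.8, 103 and 316 CPM in BCAM high against 599, 917 and 4483 CPM in BCAM low, the groups being apart (log2 change -3.28, SE 0.16, edgeR QL adjusted p = 1.35e-11). Gsto1, an omega-class glutathione transferase, was at 2543, 2694 and 3537 CPM in BCAM high against 4914, 5342 and 6037 CPM in BCAM low, also apart (log2 change -0.95, SE 0.09, edgeR QL adjusted p = 3.17e-09). Aldh3b2, an aldehyde dehydrogenase, was at 2.99, 3.77 and 6.72 CPM in BCAM high against 13.97, 21.96 and 36.8 CPM in BCAM low (log2 change -2.55, SE 0.24, edgeR QL adjusted p = 8.1e-09). The carboxylesterase Ces1f was at 1.18, 3.33 and 11.4 CPM in BCAM high against 12.9, 32.8 and 62.3 CPM in BCAM low (log2 change -2.98, SE 0.41, edgeR QL adjusted p = 0.000108). Neither gene's groups overlapped. Akr1c18, Aldh3b1, Cyp2b10, Aldh1a1, Cbr3, Por and Ces1d were lower at -1.89, -1.61, -1.40, -1.35, -0.51, -0.49 and -0.38. Ces1d lost its call without BCAM high replicate 6 or 7 or BCAM low replicate 1, and Cbr3 with the replicate block (edgeR QL adjusted p = 0.0631) and in 12 of the 16 fits, all but those without BCAM high replicate 1 or 2 or BCAM low replicate 1 or 4. Higher instead were Fmo5 at 0.62 and Gstm2 at 0.60. Of 27 tested genes of oxidative defence, 2 were called higher and 3 lower in counts (median -0.10). The number lower was 0 in batch 1 alone, 4 in batch 2 alone and 0 on TPM. The metal-binding proteins Mt1 and Mt2 were higher by 0.60 (SE 0.10) and 0.84 (SE 0.18), and the cystine carrier Slc7a11 lower at -1.15 (SE 0.31).

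Of 40 tested genes of fatty acid and lipid metabolism, 5 were called higher and 9 lower in counts, 5 and 2 on TPM, and 4 and 3 on TPM without the repeat-like genes. Alox15, a lipoxygenase that oxidises arachidonic and linoleic acid, was at 0, 8.02 and 33.1 CPM in BCAM high against 21.1, 111 and 535 CPM in BCAM low (log2 change -4.24, SE 0.53, edgeR QL adjusted p = 0.00014). Its neighbour Alox12e was at 0.611, 2.69 and 57.7 CPM in BCAM high against 26.1, 92.3 and 327 CPM in BCAM low (log2 change -3.76, SE 0.43, edgeR QL adjusted p = 6.03e-05), and in both all 8 same-numbered comparisons were lower in BCAM high. The long-chain acyl-CoA ligase Acsl1 was lower at -1.01 (SE 0.12). Higher were the desaturases Fads1 and Fads2, at 0.78 and 0.52, the cyclooxygenase Ptgs1 at 0.67 and the prostaglandin E synthase Ptges at 0.58. Cholesterol synthesis had 5 of 21 called lower and none higher (median -0.45). Mvd was at 1.31, 3.13 and 6.93 CPM in BCAM high against 7.23, 11.2 and 18.7 CPM in BCAM low (log2 change -1.85, SE 0.34, edgeR QL adjusted p = 0.000286). Insig1, Cyp51, Sqle and Msmo1 were lower at -0.96, -0.82, -0.66 and -0.50. Sqle lost its call without BCAM high replicate 2, 6 or 8 or BCAM low replicate 4 or 6 and Msmo1 without BCAM high replicate 4, 5, 7 or 8 or BCAM low replicate 1 or 6. The count was 3 without BCAM high replicate 8 or BCAM low replicate 6.

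Of 15 tested keratins and envelope proteins of squamous epithelium, 7 were called lower and none higher (median -0.47), and 5 of the 8 not called had a positive change. Krt4, a keratin of stratified mucosa, was at 272, 397 and 671 CPM in BCAM high against 675, 1408 and 1577 CPM in BCAM low, without overlap (log2 change -1.53, SE 0.21, edgeR QL adjusted p = 0.000166). Its change was -1.92 in batch 1 and -0.86 in batch 2. Krt80 was at 0.394, 3.92 and 11.3 CPM in BCAM high against 11.1, 17.5 and 27.6 CPM in BCAM low (log2 change -1.99, SE 0.42, edgeR QL adjusted p = 0.00276). Krt13, the partner keratin of Krt4, was at 2.77, 29.2 and 51.0 CPM in BCAM high against 10.6, 194 and 266 CPM in BCAM low (log2 change -2.001, SE 0.57, edgeR QL adjusted p = 0.04), with a change of -2.93 in batch 1 and 0.09 in batch 2. Its call was lost in 12 of the 16 fits, all but those without BCAM high replicate 8 or BCAM low replicate 6, 7 or 8. Ecm1, Evpl, Scel and Ppl were lower at -1.38, -1.18, -0.51 and -0.47. Scel lost its call without BCAM high replicate 3 or 5, and Evpl without BCAM high replicate 1, 2, 4 or 5 and with the replicate block (edgeR QL adjusted p = 0.074). The squamous count was 4 without BCAM high replicate 5 and 1 in batch 2 alone. Among the simple keratins of luminal cells, chosen after their values were seen, Krt8, Krt18 and Krt19 were lower at -0.74, -0.58 and -0.46.

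Of 15 tested Ly6 family genes, small surface proteins with a three-finger fold, 7 were called lower and none higher (median -0.75). Ly6g6c had the largest change named here, 0.347, 1.88 and 13.1 CPM in BCAM high against 14.5, 136 and 184 CPM in BCAM low, without overlap (log2 change -4.93, SE 0.52, edgeR QL adjusted p = 2.78e-05). Ly6g6e was at 0, 1.19 and 10.3 CPM in BCAM high against 12.9, 15.7 and 20.8 CPM in BCAM low, also without overlap (log2 change -2.89, SE 0.49, edgeR QL adjusted p = 0.000313). Ly6d, Ly6g6d, Ly6a, Ly6e and Lypd2 were lower at -1.43, -1.34, -1.22, -0.75 and -0.64. Ly6g6d lost its call without BCAM high replicate 3 or 7 or BCAM low replicate 3 or 8. Clade B serpins, intracellular protease inhibitors, went both ways, with 3 of 9 higher and 3 lower. Serpinb2 was at 0.394, 2.37 and 11.1 CPM in BCAM high against 8.19, 138 and 216 CPM in BCAM low (log2 change -4.64, SE 0.45, edgeR QL adjusted p = 1.06e-05), and the one BCAM low library inside the BCAM high range was its lowest. Serpinb11 and Serpinb1a were lower at -3.75 and -0.69, and Serpinb9, Serpinb6b and Serpinb5 higher by 0.68, 0.54 and 0.39. Plac8, a small cysteine-rich protein of immune and epithelial cells, was at 0.347, 1.70 and 5.23 CPM in BCAM high against 21.2, 55.8 and 99.5 CPM in BCAM low, without overlap (log2 change -4.54, SE 0.35, edgeR QL adjusted p = 5.18e-08).

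Tight junction genes, which seal the luminal border, had 10 of 23 tested called lower and none higher in counts, with a tight junction median of -0.41 in counts and 0.06 on TPM, where the median over all genes was 0.27. Cldn3, a sealing claudin, was at 107, 171 and 195 CPM in BCAM high against 396, 496 and 668 CPM in BCAM low, without overlap (log2 change -1.64, SE 0.11, edgeR QL adjusted p = 4.27e-12). Cldn23 was at 6.93, 16.1 and 21.2 CPM in BCAM high against 36.6, 60.9 and 88.1 CPM in BCAM low, without overlap (log2 change -2.03, SE 0.21, edgeR QL adjusted p = 1.73e-07). Marveld3, Tjp3, Pard6b, Cldn4, Cldn7, Cgn, Crb3 and Ocln were lower at -1.18, -1.06, -1.01, -0.94, -0.87, -0.79, -0.76 and -0.52. Pard6b lost its call in 11 of the 16 fits, all but those without BCAM high replicate 3 or 6 or BCAM low replicate 2, 7 or 8. Of 22 tested genes of desmosomes and adherens junctions, 3 were called higher and 4 lower in counts. On TPM the numbers were 5 and 1, and 3 and 1 without the repeat-like genes. The number lower was 5 in batch 1 alone, 1 in batch 2 alone, 2 with all 24 libraries and 1 without the batch term. Cdh13 and Cdh3, cadherins of basal cells, were higher by 0.84 (SE 0.16) and 0.68 (SE 0.14), and Pkp3 by 0.46 (SE 0.10). Cdh1 (E-cadherin) and Ctnnb1 (beta-catenin) were lower at -0.41 and -0.42 and Nectin4 at -1.66. Pkp2 was lower too and lost its call without BCAM low replicate 7 (edgeR QL adjusted p = 0.0972).

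Ion channels and transporters had 10 of 26 called lower and 1 higher (median -0.35). Kcnk5, a background potassium channel, was at 1.04, 3.26 and 4.91 CPM in BCAM high against 3.97, 12.2 and 21.1 CPM in BCAM low (log2 change -2.09, SE 0.32, edgeR QL adjusted p = 2.65e-05). Kcne3 and Kcnq1, which form an epithelial potassium channel together, were lower at -1.81 and -1.54. Slc4a4, a bicarbonate cotransporter, was lower at -1.22, the sodium pump subunit Atp1b1 at -0.65, and Trpv4, a calcium channel sensitive to swelling, was higher by 0.47 (SE 0.10). The water channel Aqp5 was at 189, 245 and 344 CPM in BCAM high against 377, 653 and 1339.7 CPM in BCAM low, without overlap (log2 change -1.57, SE 0.18, edgeR QL adjusted p = 1.56e-05). Aqp3 of the basolateral side was higher, at 2553, 2621 and 2826 CPM in BCAM high against 1513, 2086 and 2476 CPM in BCAM low, also without overlap (log2 change 0.41, SE 0.09, edgeR QL adjusted p = 0.00264). Slc9a4, a sodium-proton exchanger, was at 0, 0.267 and 1.31 CPM in BCAM high against 3.88, 9.23 and 20.7 CPM in BCAM low (log2 change -4.20, SE 0.56, edgeR QL adjusted p = 2.91e-06). The calcium-binding S100g was at 1.04, 6.43 and 11.6 CPM in BCAM high against 35.2, 86.5 and 329.9 CPM in BCAM low (log2 change -3.96, SE 0.49, edgeR QL adjusted p = 0.00012), with every BCAM high library below every BCAM low library in both. Gabrp, the pi subunit of GABA-A receptors, was at 148, 182 and 265 CPM in BCAM high against 383, 508 and 602 CPM in BCAM low, apart as well (log2 change -1.39, SE 0.11, edgeR QL adjusted p = 5.12e-10).

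Of 29 proteases and their inhibitors 8 were called lower and 2 higher in counts, 4 and 5 on TPM, and 5 and 2 on TPM without the repeat-like genes. Spint1 and Spint2, membrane inhibitors of serine proteases, were lower at -1.09 and -1.11, and their target St14 (matriptase) at -0.36. Tmprss4, a related membrane protease, was at 2.14, 5.24 and 28.5 CPM in BCAM high against 26.1, 34.5 and 59.0 CPM in BCAM low (log2 change -2.24, SE 0.28, edgeR QL adjusted p = 7.53e-06). Plat, the tissue plasminogen activator, was at 0.875, 2.34 and 7.97 CPM in BCAM high against 9.39, 23.7 and 69.2 CPM in BCAM low, without overlap (log2 change -3.48, SE 0.26, edgeR QL adjusted p = 5.31e-11). Prss23 and Ctsl were higher, by 0.79 (SE 0.12) and 0.42 (SE 0.10). Anxa1, which binds membranes in a calcium-dependent way, was at 1181, 1537 and 1592 CPM in BCAM high against 1989, 2940.5 and 3587 CPM in BCAM low, without overlap (log2 change -0.92, SE 0.10, edgeR QL adjusted p = 9.78e-08). Rhov, a small GTPase, was at 0, 0.666 and 1.90 CPM in BCAM high against 4.47, 10.7 and 22.5 CPM in BCAM low, also apart (log2 change -3.85, SE 0.53, edgeR QL adjusted p = 5.34e-06).

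Interferon-stimulated genes had 9 of 41 tested called lower and none higher in counts. On TPM 4 were called lower and 3 higher, and 6 and 2 without the repeat-like genes. The number lower in counts was 4 with all 24 libraries and 3 without the batch term. The median for interferon-stimulated genes was -0.30 in counts and -0.01 on TPM. The median over all genes was 0.27 on TPM. Ifit1, which binds viral RNA, was at 5.91, 23.8 and 29.1 CPM in BCAM high against 19.3, 33.6 and 73.4 CPM in BCAM low (log2 change -1.13, SE 0.18, edgeR QL adjusted p = 4.25e-05), and all 8 same-numbered comparisons were lower in BCAM high although batch 2 was lower in both groups. Irf7, a transcription factor of the response, was lower at -1.04, Oasl2 at -1.08, Isg20 at -0.80, Parp9 at -0.47, and Zbp1, Mx1, Oas1a and Ifit3 at -1.22, -1.06, -0.86 and -1.54. Zbp1 lost its call without BCAM high replicate 1 or BCAM low replicate 3 and Oas1a without BCAM high replicate 6 or BCAM low replicate 3. Mx1 lost its call in 10 of the 16 fits, all but those without BCAM high replicate 3, 6 or 7 or BCAM low replicate 2, 7 or 8. Ifit3 lost its call in 12 of the 16 fits, all but those without BCAM high replicate 6 or BCAM low replicate 1, 4 or 7. With the replicate block Mx1 was not called (edgeR QL adjusted p = 0.0516). The count was 5 without BCAM low replicate 3. The 200 bases before the start of Ifit1 are shown as the example of the motif to which interferon-activated factors bind, at chr19:34640689-34640888 (plus strand) (RefSeq, GRCm38.p6), with capitals at pairs of GAAA spaced by 2 bases of any kind, on either strand, 104 and 85 bases before the start.
Ifit1: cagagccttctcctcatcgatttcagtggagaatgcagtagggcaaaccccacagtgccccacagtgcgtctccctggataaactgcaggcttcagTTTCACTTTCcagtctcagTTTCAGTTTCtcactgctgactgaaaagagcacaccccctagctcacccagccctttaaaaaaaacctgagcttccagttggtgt
Those letters were in 2.03% of the 9000 windows, in 12 of 30 tested interferon-stimulated genes (40.0%) and in 3 of the 6 called ones that had a window. Among all genes called lower the share was 2.50%.

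Transcription factors of epithelial lineages had 3 of 51 tested called higher and 7 lower in counts, 6 and 3 on TPM, and 3 and 3 on TPM without the repeat-like genes. Besides Trp63 and Snai2, Sox15 was higher, by 0.99 (SE 0.22). Ovol1, a repressor that drives cells out of the progenitor state, was at 10.5, 11.6 and 20.1 CPM in BCAM high against 21.2, 37.7 and 50.8 CPM in BCAM low, without overlap (log2 change -1.44, SE 0.19, edgeR QL adjusted p = 2.95e-06). Grhl3 and Grhl1, grainyhead factors of barrier formation, were lower at -2.14 and -1.27, and Elf3 at -0.42. Irx5, Tfcp2l1 and Sox21 were lower too, at -1.09, -0.74 and -0.57. Tfcp2l1 lost its call without BCAM high replicate 2 or 4 or BCAM low replicate 5 or 7. Irx5 lost its call in 12 of the 16 fits, all but those without BCAM high replicate 3 or 6 or BCAM low replicate 1 or 8. Sox21 lost its call in 9 of the 16 fits, all but those without BCAM high replicate 6, 7 or 8 or BCAM low replicate 5, 6, 7 or 8. The number lower was 4 without BCAM high replicate 2 or without BCAM high replicate 4. Axonemal and dynein arm genes, which belong to cilia, had 5 of 13 tested called lower and none higher (median -1.27). Dnah12 was at 0, 1.00 and 4.97 CPM in BCAM high against 0.994, 9.18 and 52.5 CPM in BCAM low (log2 change -3.50, SE 0.48, edgeR QL adjusted p = 9.79e-06). Tppp3 was at 44.1, 191 and 327 CPM in BCAM high against 216, 405 and 547 CPM in BCAM low (log2 change -1.27, SE 0.23, edgeR QL adjusted p = 0.00237). Of the 59 axonemal genes listed, 13 had enough counts to be tested. Levels of Dnah12 were low in most libraries, whereas those of Tppp3 were not. What share of the counts of such genes came from ciliated cells in the sort was not tested.

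Other genes with the smallest p or the largest changes were spread over several functions. Igfbp5, a binding protein of insulin-like growth factors, was at 48.9, 131 and 164 CPM in BCAM high against 122, 275 and 371 CPM in BCAM low (log2 change -1.20, SE 0.11, edgeR QL adjusted p = 2.93e-09). Prr15l was at 9.05, 13.2 and 21.1 CPM in BCAM high against 40.8, 53.4 and 74.5 CPM in BCAM low (log2 change -2.05, SE 0.18, edgeR QL adjusted p = 3.17e-09). Kctd14 was at 2.29, 4.06 and 6.30 CPM in BCAM high against 19.5, 27.4 and 38.8 CPM in BCAM low (log2 change -2.66, SE 0.23, edgeR QL adjusted p = 2.31e-09). The groups were apart for Prr15l and Kctd14 and overlapped for Igfbp5. On the higher side, Tgm2, a transglutaminase that crosslinks proteins, was at 1909, 2047 and 2348 CPM in BCAM high against 626, 1099 and 1399 CPM in BCAM low, without overlap (log2 change 0.98, SE 0.11, edgeR QL adjusted p = 1.07e-07). Tns4, a tensin of focal adhesions, was at 96.6, 124 and 239 CPM in BCAM high against 43.2, 61.0 and 132 CPM in BCAM low (log2 change 1.03, SE 0.11, edgeR QL adjusted p = 9.21e-08). Hyal1, which cleaves hyaluronan, was at 65.2, 101 and 137 CPM in BCAM high against 39.3, 50.1 and 70.1 CPM in BCAM low (log2 change 0.93, SE 0.13, edgeR QL adjusted p = 5.05e-06). Cdo1, which oxidises cysteine, was at 49.6, 74.5 and 93.5 CPM in BCAM high against 26.1, 32.1 and 46.05 CPM in BCAM low (log2 change 1.07, SE 0.13, edgeR QL adjusted p = 3.5e-07). Only for Cdo1 among these 3 were the groups apart. Rgcc, a regulator of cell cycle kinases, was at 23.5, 33.5 and 77.0 CPM in BCAM high against 7.23, 13.6 and 20.2 CPM in BCAM low, apart as well (log2 change 1.43, SE 0.21, edgeR QL adjusted p = 1.97e-05). The adhesion molecule Vcam1 was at 4.31, 10.3 and 18.4 CPM in BCAM high against 1.13, 4.96 and 7.69 CPM in BCAM low, with overlap (log2 change 1.36, SE 0.30, edgeR QL adjusted p = 0.00251). The call of Vcam1 was lost with all 24 libraries in one fit, in batch 2 alone and on TPM without the repeat-like genes.

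Called genes were spread over the genome. The share called ran from 7.67% on chromosome 18 to 13.6% on chromosome 10 among chromosomes with 300 or more tested genes, beside 11% of all genes, and on the X chromosome 20 of 352 were higher and 14 lower. Called shares rose with expression level, from 6.77% in the lowest of 4 equal bins to 19.6% in the highest, while the median size of a called change fell from 1.34 to 0.47. In the lowest bin 37 were higher and 162 lower, and in the highest 339 were higher and 236 lower. Of 402 tested pseudogenes, 34 were called higher and 10 lower. Neighbouring tested genes called in the same direction, at least 3 in a row, formed 9 runs of 28 genes that were lower and 2 runs of 6 genes that were higher, with coordinates on GRCm38 from GENCODE M21.

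Several of the runs of lower genes were clusters of related genes. Ces1d, Ces1e, Ces1f and Ces1h, carboxylesterases at chr8:93166068-93379725, changed by -0.38 to -2.98. Alox12, Alox12e and Alox15 lie at chr11:70241457-70352031, over 111 kb, with changes from -0.77 to -4.24. Krt4, Krt8 and Krt18 lie at chr15:101918535-102032027 (changes from -0.58 to -1.53), and Ly6g6c, Ly6g6d and Ly6g6e at chr17:35065388-35078804 within 13.4 kb (changes from -1.34 to -4.93). The runs of higher genes were Tjap1, Dlk2 and Abcc10 at chr17:46257851-46328352, with changes from 0.63 to 1.19, and Matn4, Rbpjl and Sdc4 at chr2:164389393-164443887, with changes from 0.32 to 1.33. Reads of similar carboxylesterase or Ly6 copies cannot be told apart with certainty in estimated counts.

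**Figure D4:**
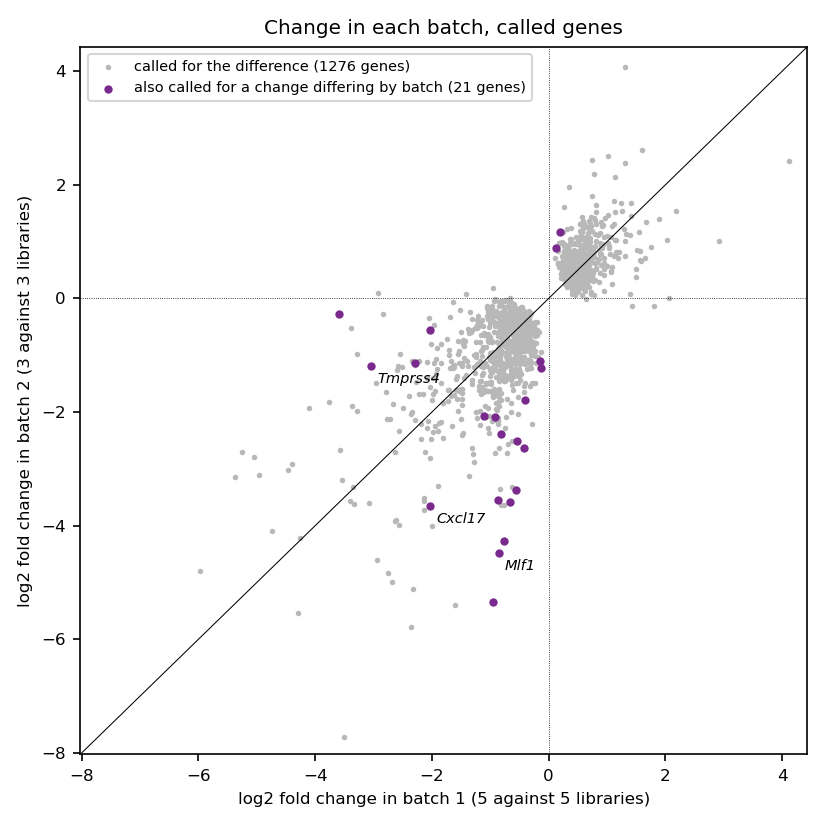
Log2 fold change of BCAM high minus BCAM low in batch 1 (horizontal, 5 against 5 libraries) and in batch 2 (vertical, 3 against 3) for the 1297 called genes, with the diagonal of equal change. Purple marks the 21 genes whose change also differed between the batches by edgeR QL, most of them below the diagonal, and Cxcl17, Mlf1 and Tmprss4 are named.

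The size of the difference itself varied with batch for some genes. The interaction of group and batch was called for 82 of 11764 genes (0.697%), with the change more negative in batch 2 for 51 and more positive for 31, and 21 of them were also called for the difference. Of those 21, 10 kept the interaction call in all 16 fits that left out a library, over which the total ran from 37 without BCAM low replicate 6 to 119 without BCAM low replicate 2, with 50 without BCAM high replicate 6, 46 without BCAM high replicate 7, 53 without BCAM low replicate 4 and 48 without BCAM low replicate 7. Sec14l3, a lipid-transfer protein of airway epithelium, had mean levels of 364 and 532 CPM in batch 1 and 184 and 1055 CPM in batch 2 for BCAM high and BCAM low, and its change was -0.55 in batch 1 and -2.52 in batch 2 (interaction -1.97, edgeR QL adjusted p = 5.94e-05). With the replicate block Sec14l3 was not called for the difference over all libraries (edgeR QL adjusted p = 0.0823). Mgst1, a microsomal glutathione transferase, changed by -0.82 in batch 1 and -2.39 in batch 2 (interaction -1.57, edgeR QL adjusted p = 0.00217). Cxcl17, a mucosal chemokine, changed by -2.03 in batch 1 and -3.65 in batch 2 (interaction -1.62, edgeR QL adjusted p = 0.00277) and Aldh1a1, which makes retinoic acid, by -0.92 in batch 1 and -2.09 in batch 2 (interaction -1.16, edgeR QL adjusted p = 0.00183). In the other direction, Arg1, which cleaves arginine, changed by -3.59 in batch 1 and -0.28 in batch 2 (interaction 3.31, edgeR QL adjusted p = 0.00379) and Pdzk1ip1 by -2.04 in batch 1 and -0.55 in batch 2 (interaction 1.48, edgeR QL adjusted p = 0.00217). These named genes were among the 10 and were chosen after their values were seen. Summed CPM of the secretory markers averaged 45406 and 67754 in batch 1 and 53184 and 106257 in batch 2 for BCAM high and BCAM low, and of the ciliated markers 316 and 534 against 126 and 803. Whether these differences between batches account for the interaction was not tested.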

How the data were processed

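RNA was sequenced from pools of 1000 sorted cells with the SmartSeq2 population protocol, as read pairs of 38 bp on a NextSeq500, per the labels' protocols. The authors deposited, per the file headers, an estimated count and a TPM value for each of 117497 transcripts, in the layout kallisto writes; the submitters' processing notes name kallisto 46.1, Picard and GRCm39, with no role given. Estimated counts as deposited are not normalized, and the deposited TPM are scaled to transcript length and library total. Estimated counts can divide reads between similar genes, so values of near-identical copies are uncertain.

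Identifiers without version were matched to GENCODE M21 (GRCm38): 116374 matched, and the 1123 others, with 0.317% to 0.453% of a library's counts, were left out. Counts were summed per gene and rounded to whole numbers. Genes were tested with edgeR's quasi-likelihood method (edgeR 4.0.16, limma 3.58.1, R 4.3.3; robust fit, TMM, default filter on low counts) on the 16 libraries with batch as covariate, BH-adjusted over 11764 genes; the SE was derived from the change and its F statistic (absolute change over root F). The interaction of group and batch was tested in the same way. The procedure was also run on simulated counts with planted changes, each library drawn independently. That run does not cover libraries that belong together, and no result here rests on it.

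The labels do not say whether same-numbered libraries of the groups belong together. Deviations from group means of same-numbered libraries correlated at 0.137 to 0.323 over genes in the 8 pairs. As deviations from means of group and batch they correlated at 0.0467 to 0.196. By group means, 5 of 8 BCAM high and 7 of 8 BCAM low libraries correlated best with their own number. By means of group and batch, 6 and 8 did. The main fit held the batch but not the replicate number. Alternatives were DESeq2 (1.42.0) size factors and Wald test, limma-voom, limma on log2(TPM + 0.1), other filters, all 24 libraries, no batch term, the replicate block, single batches, a threshold of 0.01 and leaving out each library. The alternatives without Gm10800 and without 12 repeat-like genes were chosen after seeing the data.

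The members and gene lists were chosen with earlier results of these data known. Genes named are, per direction, the 10 largest changes and the 10 smallest p among called genes with a mean of at least 10 CPM in the higher group, without predicted genes, up to 3 called members per list with the largest change, and Bcam; other members are given where their list is described. Some genes of the rule and lists are not reported here. No molecular identifiers are described, so reads of a gene need not be independent molecules.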

Additional observations from a re-analysis of the deposited data

Results flagged for a closer look

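The change between BCAM high and BCAM low differed between the batches, by edgeR QL with an interaction term, for 3 of the genes named by rule. Cxcl17 was more negative in batch 2 by -1.6241 on the log2 scale (edgeR QL adjusted p = 0.00277), with the call kept in all 16 fits that left out a library. Mlf1, a gene of ciliated cells, differed by -3.6398 (edgeR QL adjusted p = 0.0119), and its call was lost without BCAM low replicate 6 (edgeR QL adjusted p = 0.118). Tmprss4 differed by 1.8438 (edgeR QL adjusted p = 0.0242), and its call was lost without BCAM high replicate 1, 3 or 8 or BCAM low replicate 6 or 7 (highest edgeR QL adjusted p = 0.101).

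Single libraries stood apart from the other 7 of their group by Dixon's criterion in 13 of 314 groups checked over 157 named genes, or 4.1%, where chance gives about 1 in 20. In BCAM low replicate 7 Krt14 was at 12.04 CPM and Tgfbi at 7.226 CPM, below all other BCAM low libraries. In BCAM low replicate 6 Rpl3-ps1 was at 14.84 CPM and Csrp1 at 38.09 CPM, again the lowest. BCAM low replicate 3 had Il1r2 at 0.7756 CPM and BCAM low replicate 5 had Lyz2 at 440.6 CPM, both the lowest of their group. In BCAM high replicate 6 Csrp1 was lowest at 94.99 CPM and Erap1 highest at 124.1 CPM. Ccnb1 was at 0 in BCAM high replicate 7, Ndufa4 was lowest at 128.5 CPM in BCAM high replicate 4, and Sesn1 was highest at 241.5 CPM in BCAM high replicate 5. H2-K1 was highest at 743.7 CPM in BCAM high replicate 2, and Gsto1 at 3537 CPM in BCAM high replicate 8. H2-K1 lost its call for the difference without BCAM low replicate 6 (edgeR QL adjusted p = 0.0555), and Il1r2 in 8 of the 16 fits, without BCAM high replicate 1, 2, 3, 5 or 8 or BCAM low replicate 4, 5 or 6, and with the replicate block (edgeR QL adjusted p = 0.0519).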

How the results depend on the processing

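The 1297 calls (534 higher, 763 lower) became 857 (297 higher) with all 24 libraries in one fit, 671 (227 and 444) without a batch term, 787 (298 and 489) in batch 1 alone, 722 (268 and 454) in batch 2 alone and 689 (259 and 430) at a threshold of 0.01. On TPM 1210 were higher and 247 lower, and 550 and 381 without the repeat-like genes. DESeq2 size factors gave 1298, the DESeq2 Wald test 1537, limma-voom 1375, no filter 1583, a strict filter 1179 and Gm10800 left out 1311. Leaving out 1 library gave 1062 to 1349 calls, 417 to 553 higher and 639 to 796 lower. Of the 1297, 752 were called in the same direction with 24 libraries, 613 in batch 1 alone, 517 in batch 2 alone, with 8 of opposite sign there, and 716 on TPM, with 25 of opposite sign. With the replicate block 1440 were called, 1211 of the 1297 among them; the calls it changed for genes named in the text are given there. Reversed values were Krt13 in batch 2 alone (0.0879), and Serpinb1a (0.0636) and H2-K1 (0.0261) on TPM. The 82 interaction calls ran from 37 to 119 when 1 library was left out, were 82 with DESeq2 size factors and 66 with the strict filter. The lowest of 4 equal bins by level had 6.77% called, and the part of depth in this share was not tested.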
